A study of Mus musculus with 64 samples.

Results

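The genes described here are 39 mouse genes whose products make fatty acids and join them into triglyceride. They were listed by name, from the supply of acetyl-CoA and NADPH through synthesis, elongation and desaturation to the acylation of glycerol, together with the transcription regulators of these steps. A gene was measured by the probe set annotated to that gene alone, and by the one with the highest mean level where a gene had several. Of the 39 genes, 38 had a probe set of their own, out of 18193 genes so named on the array, and Acsl1, a ligase that activates long-chain fatty acids, had none. Of these 38, 28 had more than 1 probe set.

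Levels came from 64 arrays of the Affymetrix Mouse Genome 430 2.0 type, 1 for each of 4 tissues of 16 mice. All were male F2 mice, labelled TALLYHO x C57BL6, from a cross of the strains TALLYHO/JngJ and C57BL/6J, killed at 24 weeks of age after free access to chow with 4% fat. High triglyceride mice (8) came from the upper tail of plasma triglyceride among the male F2 mice, low triglyceride mice (8) from the lower tail, and overtly diabetic mice were left out of both. Each F2 mouse carries its own mixture of the parental genomes, so neither group has a set genotype. The groups were chosen on triglyceride, and other traits of these mice, such as fat pad weight, were not analysed here. The authors report heavier summed fat pads in the high than in the low triglyceride mice, so the groups also differ in fat mass. Whole liver, pancreas, skeletal muscle (soleus and gastrocnemius combined) and adipose tissue (the inguinal, epididymal, retroperitoneal, perirenal and subscapular pads combined) were profiled as bulk tissue, in which fewer cells of a type and less RNA per cell cannot be told apart.

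A mouse makes fatty acids mainly in liver and adipose tissue. Citrate carried out of mitochondria is split to acetyl-CoA, acetyl-CoA carboxylase turns it into malonyl-CoA, and fatty acid synthase builds the chain, which elongases and desaturases then modify. Activated fatty acids are placed on glycerol phosphate, the phosphate is removed, and a last acyl group gives triglyceride, which liver secretes in lipoproteins and adipose tissue stores. SREBP-1c, the product of Srebf1, and ChREBP, the product of Mlxipl, are the main transcription factors that switch on these genes after insulin and carbohydrate.

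The arrays of a tissue correlated closely, with a mean r to the others of 0.988 to 0.993 over 15 livers, 0.988 to 0.993 in pancreas, 0.991 to 0.995 in muscle and 0.973 to 0.983 in adipose tissue. The array labelled liver low replicate 7 stood apart at 0.830. It carried Alb, the hepatocyte marker albumin, at 6.50 and the fat cell marker Adipoq at 14.23, where the other low triglyceride livers had 15.62 to 15.82 for Alb and 2.32 to 4.41 for Adipoq, all on the log2 scale. This array was left out, which leaves 8 high and 7 low triglyceride livers, and what its return would change is given with the processing alternatives. The muscle arrays of high replicates 1 and 4 each correlated best with the other's mouse number in all 6 comparisons with other tissues, while the same mice matched their own number in 5 of 6 comparisons among the other 3 tissues and the other 14 mice in 80 of 84. Both belong to the high triglyceride group, so the comparison of groups in muscle does not rest on which is which. Each labelled tissue carried its own markers: all 6 hepatocyte markers in liver, all 5 measured acinar markers in pancreas, all 6 muscle fibre markers in muscle and all 4 measured adipocyte markers in adipose tissue had a mean log2 level of 4 or more. Markers of other tissues were present too. All 6 muscle fibre markers reached this mean in adipose tissue, with Ckm at 9.99 ± 3.32 (SD), and Adipoq was at 9.29 ± 1.39 in muscle. How much such cells add to the tissue levels given below was not tested.

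The stretch around the transcription start is shown for Fasn, the gene of fatty acid synthase, and for Elovl6, Acacb and Acly, the 3 genes whose levels passed the test of covariation with Fasn over livers. Each runs 5′ to 3′ on the strand of its gene over 300 bases, 250 before the start and 50 from the start on, as RefSeq gives it for the build GRCm38.p6. Capitals mark CCAAT (the CCAAT box) and GGGCGG (the Sp1 box) on either strand. Fasn is at chr11:120824498-120824797 (minus strand), Elovl6 at chr3:129532136-129532435 (plus strand), Acacb at chr5:114165268-114165567 (plus strand) and Acly at chr11:100527951-100528250 (minus strand).
Fasn: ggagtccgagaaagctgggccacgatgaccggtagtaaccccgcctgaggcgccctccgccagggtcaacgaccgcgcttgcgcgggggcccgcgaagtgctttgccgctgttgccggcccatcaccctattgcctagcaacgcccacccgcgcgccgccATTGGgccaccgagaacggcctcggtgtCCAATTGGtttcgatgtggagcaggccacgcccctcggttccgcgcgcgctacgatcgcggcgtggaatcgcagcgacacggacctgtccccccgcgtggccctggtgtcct
Elovl6: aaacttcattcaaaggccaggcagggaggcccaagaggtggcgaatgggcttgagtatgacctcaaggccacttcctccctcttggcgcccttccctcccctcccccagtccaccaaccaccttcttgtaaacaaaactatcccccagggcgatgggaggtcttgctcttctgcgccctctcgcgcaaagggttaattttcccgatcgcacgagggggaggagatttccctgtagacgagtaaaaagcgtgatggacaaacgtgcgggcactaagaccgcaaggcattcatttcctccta
Acacb: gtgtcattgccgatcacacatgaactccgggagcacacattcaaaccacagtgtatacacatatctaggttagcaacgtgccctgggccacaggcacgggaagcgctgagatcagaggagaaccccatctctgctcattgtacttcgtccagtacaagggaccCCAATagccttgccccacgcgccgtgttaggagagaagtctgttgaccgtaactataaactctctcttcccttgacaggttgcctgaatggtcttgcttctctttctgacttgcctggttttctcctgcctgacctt
Acly: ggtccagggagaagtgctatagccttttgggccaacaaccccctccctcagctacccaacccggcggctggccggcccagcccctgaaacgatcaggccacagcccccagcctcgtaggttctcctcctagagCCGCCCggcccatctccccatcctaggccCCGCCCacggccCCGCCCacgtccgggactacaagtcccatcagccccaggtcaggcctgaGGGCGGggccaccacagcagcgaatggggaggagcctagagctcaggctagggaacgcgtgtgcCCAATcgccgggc

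The Fasn stretch held CCAAT 3 times, with first bases at -90, -62 and -59 from the start, of which the last 2 overlap. Acacb held it once, at -87, and Acly once, at 37 after the start, along with 4 Sp1 boxes at -117, -88, -76 and -27. Elovl6 held none of the motifs searched. Besides the CCAAT box and the Sp1 box these were the E-box CACGTG and the sterol response element TCACNCCAC, each on both strands. Promoters were at hand for 31 of the 38 genes. CCAAT lay in a promoter of 21 of these 31 genes and in 37.4% of all 32851 promoters, GGGCGG in 19 and 35.7%, CACGTG in 6 (Elovl5, Lpin2, Lpin3, Mlx, Mlxipl and Slc25a1) and 7.15%, and TCACNCCAC in 1 (Mlxipl) and 1.24%. A gene with several starts counts once if any of its promoters holds the letters, so the count over genes and the share over promoters have different denominators. Counted over the 44 promoters of these genes, CCAAT lay in 23, GGGCGG in 25, CACGTG in 6 and TCACNCCAC in 1. A match describes letters in a window and not a bound site.

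The first question is which isoform of each enzyme a tissue carries. In adipose tissue, 33 of the 38 genes had a mean log2 level of 4 or more, with 30 in liver, 26 in muscle and 19 in pancreas, that is 86.8%, 78.9%, 68.4% and 50.0% of them, where the same level was reached by 43.5%, 32.9%, 35.6% and 22.8% of all probe sets. The lowest value that a tissue can give lay between 2.24 and 2.35. Some probe sets repeated a higher value over many arrays, such as Acacb at 4.76 in pancreas. A mean of 4 or more therefore does not by itself show that a gene is expressed there. In all 4 tissues 16 genes reached a mean of 4, 11 genes did so in 3 tissues and 2 genes in 2. Another 7 reached it in 1 tissue only, and 2, Elovl7 and Lpin3, in none. Adipose tissue had the highest mean for 23 genes, liver for 9, muscle for 6 and pancreas for 0, that is 60.5%, 23.7%, 15.8% and 0% of all 38 genes. Of the 23106 probe sets with a mean of 4 or more in at least 1 tissue, 53.4%, 14.6%, 25.5% and 6.53% were highest there. The authors' values have a different floor in each tissue, so tissues were compared as descriptions with no test, each gene only with itself, as mean ± SD over 15 livers or 16 arrays of another tissue. Ranking the probe sets within each tissue left adipose tissue highest for 16 genes (42.1%, against 24.7% of the same 23106 probe sets) and liver for 15 (39.5%, against 22.7%). It moved the highest tissue of 9 genes (Acly, Elovl1, Srebf1, Mlx, Acsl4, Gpam, Agpat1, Agpat3 and Agpat5).

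**Figure D1:**
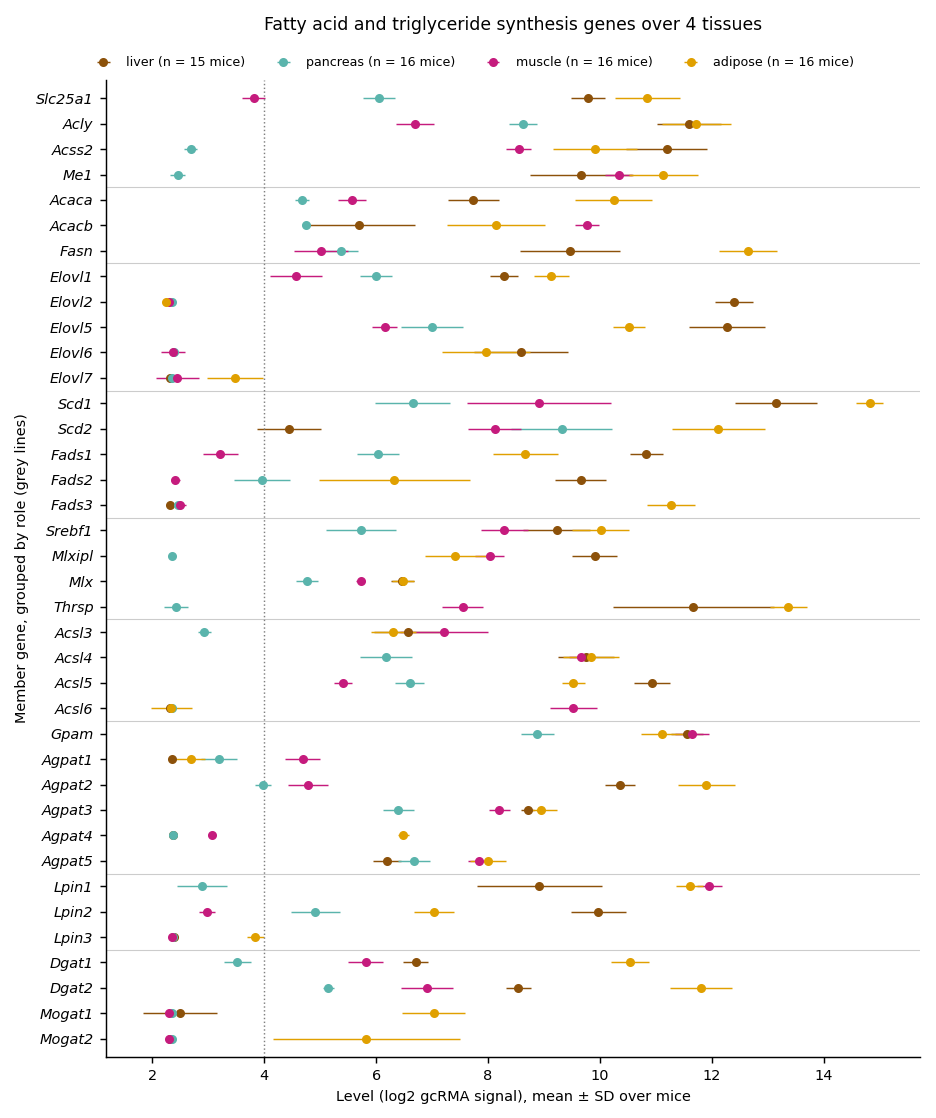
Mean level (log2 gcRMA signal, ± SD over mice) of the 38 genes in liver (n = 15), pancreas, muscle and adipose tissue (n = 16 each), with grey lines between roles and a dotted line at 4. Points are to be compared along a line only; Elovl2 reaches a mean of 4 in liver alone, Acsl6 in muscle alone and Fads3 in adipose tissue alone.

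Genes that supply carbon and NADPH were high in both tissues of fat synthesis. Slc25a1, the mitochondrial citrate carrier, averaged 10.85 ± 0.59 in adipose tissue and 9.79 ± 0.30 in liver, with overlapping ranges, 6.05 ± 0.28 in pancreas and 3.81 ± 0.21 in muscle. Acly, ATP citrate lyase, was alike in adipose tissue (11.73 ± 0.62) and liver (11.60 ± 0.57). Acss2, which makes acetyl-CoA from acetate, was highest in liver at 11.20 ± 0.72 and near the floor in pancreas at 2.69 ± 0.12. Malic enzyme, Me1, had overlapping levels in adipose tissue (11.13 ± 0.62), muscle (10.33 ± 0.24) and liver (9.67 ± 0.92), and 2.45 ± 0.14 in pancreas.

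The 2 acetyl-CoA carboxylases split by tissue. Acaca, the cytosolic form that feeds fatty acid synthesis, was at 10.24 ± 0.69 in adipose tissue and 7.73 ± 0.46 in liver, and no adipose value fell into the range of liver. Acacb, the mitochondrial form whose malonyl-CoA holds back fatty acid oxidation, was highest in muscle at 9.77 ± 0.22, above adipose tissue (8.15 ± 0.87), liver (5.68 ± 1.02) and pancreas (4.75 ± 0.03). Most pancreas arrays shared the same Acacb value of 4.76, and whether it lies above background was not tested. Fasn averaged 12.65 ± 0.52 in adipose tissue, 9.47 ± 0.89 in liver, 5.38 ± 0.29 in pancreas and 5.01 ± 0.49 in muscle. Its adipose and liver ranges met only through the liver of high replicate 6, at 11.66, since the lowest adipose value was 11.48.

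Several elongases and desaturases were carried by only 1 or 2 of the tissues. Elovl2, which extends polyunsaturated fatty acids, was at 12.39 ± 0.34 in liver and within 0.5 of the floor in every array of the other 3 tissues. Elovl5, of related substrates, was also highest in liver (12.27 ± 0.68), followed by adipose tissue (10.52 ± 0.28). Elovl6, which lengthens palmitate, was carried by liver (8.59 ± 0.85) and adipose tissue (7.96 ± 0.78) only, with 2.39 ± 0.02 in pancreas and 2.37 ± 0.21 in muscle. Elovl1, of saturated very long chains, was at 9.13 ± 0.31 in adipose tissue and 8.29 ± 0.25 in liver.

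Scd1, the main stearoyl-CoA desaturase of liver and fat, stood at 14.82 ± 0.25 in adipose tissue and 13.15 ± 0.74 in liver. Its spread was widest in muscle, with 8.91 ± 1.29 and single values between 5.35 and 10.87. Scd2 had another order, with 12.12 ± 0.83 in adipose tissue, 9.31 ± 0.91 in pancreas, 8.12 ± 0.48 in muscle and 4.44 ± 0.57 in liver. Fads1 and Fads2, the desaturases of polyunsaturated fatty acid synthesis, were both highest in liver, at 10.83 ± 0.30 and 9.66 ± 0.45, and next in adipose tissue, at 8.67 ± 0.58 and 6.33 ± 1.35. Fads3 was the reverse, with 11.27 ± 0.42 in adipose tissue and every array of the other 3 tissues within 0.5 of the floor.

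Among the regulators, Srebf1 ran from 10.01 ± 0.51 in adipose tissue over 9.23 ± 0.59 in liver and 8.29 ± 0.42 in muscle to 5.73 ± 0.62 in pancreas. Mlxipl was highest in liver (9.91 ± 0.40), with no overlap with muscle (8.03 ± 0.26), and at the floor in pancreas (2.36 ± 0.03). Its partner Mlx differed little, between 6.49 ± 0.20 in adipose tissue and 4.76 ± 0.19 in pancreas. Thrsp, a lipogenic protein induced by thyroid hormone and carbohydrate, was at 13.37 ± 0.33 in adipose tissue. In liver Thrsp varied more between mice than any other of the 38 genes, at 11.67 ± 1.44 with single values from 9.67 to 13.71, and Lpin1 (SD 1.12) and Acacb (SD 1.02) came next.

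The ligases that activate fatty acids also divided among tissues. Acsl5 was highest in liver (10.93 ± 0.32) and Acsl6 in muscle (9.52 ± 0.42), the only tissue in which Acsl6 reached a mean of 4. Acsl4, which prefers arachidonate, was alike in adipose tissue (9.83 ± 0.50), liver (9.75 ± 0.49) and muscle (9.66 ± 0.21). Acsl3, an enzyme of lipid droplets, averaged 7.21 ± 0.79 in muscle, 6.57 ± 0.61 in liver and 6.31 ± 0.41 in adipose tissue.

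On the glycerol branch, Gpam, the mitochondrial acyltransferase of the first step, was nearly level across muscle (11.65 ± 0.30), liver (11.55 ± 0.28) and adipose tissue (11.12 ± 0.38), with 8.88 ± 0.29 in pancreas. Agpat2, whose loss causes lipodystrophy in humans, was at 11.90 ± 0.51 in adipose tissue and 10.36 ± 0.26 in liver without overlap. Agpat1 passed 4 in muscle only (4.69 ± 0.32) and Agpat4 in adipose tissue only (6.48 ± 0.10), while the highest and lowest tissue means were 2.55 apart for Agpat3 and 1.80 apart for Agpat5. For the phosphatidate phosphatases, Lpin1 was at 11.96 ± 0.23 in muscle, 11.61 ± 0.24 in adipose tissue and 8.92 ± 1.12 in liver, and Lpin2 was highest in liver at 9.97 ± 0.49 with no overlap with adipose tissue at 7.04 ± 0.35. Both diacylglycerol acyltransferases were highest in adipose tissue without overlap, Dgat1 at 10.54 ± 0.34 against 6.71 ± 0.22 in liver and Dgat2 at 11.81 ± 0.56 against 8.54 ± 0.22 in liver. The monoacylglycerol acyltransferases Mogat1 (7.03 ± 0.56) and Mogat2 (5.83 ± 1.67) reached a mean of 4 in adipose tissue alone. In all, the highest tissue did not overlap the next one for 16 of the 38 genes, 9 of them highest in adipose tissue, 5 in liver and 2 in muscle, where 52.2% of all probe sets had no such overlap. Among those with a mean of 4 or more in the highest tissue it was 15 of 36 genes and 51.4% of probe sets, so separation by tissue is not particular to these genes.

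The second question is whether the genes rise and fall together from mouse to mouse within a tissue. The level of Fasn was taken as the guide, and for every probe set limma fitted the slope on Fasn with the triglyceride group as a term and Benjamini-Hochberg adjustment over 45036 probe sets. Most genes named below were picked as the 5 highest or 2 lowest r with Fasn in a tissue. Their permutation p comes from the same mice and takes no account of that choice, so it describes a pair and is no separate support. In liver, genes of fatty acid synthesis moved with Fasn: Elovl6, Acacb and Acly passed an adjusted p of 0.05, all with positive slopes. These 3 stand among 37 genes tested, where 8 probe sets of 45036 passed, or 0.0178%. The 8 were 2 probe sets of Elovl6, 2 of Acly, 2 of Pgd (phosphogluconate dehydrogenase, a source of NADPH that is not among the 39 genes), 1 of Acacb and 1 of Gas2l3.

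In livers of high triglyceride mice Fasn ran from 8.31 over a median of 9.42 to 11.66, and in those of low triglyceride mice from 8.34 over 9.69 to 10.01. The 2 groups overlapped almost fully, and the spread within each was what the slopes rest on. Elovl6 ran from 7.69 over 8.47 to 10.88 in high and from 7.61 over 8.56 to 9.31 in low triglyceride mice. The liver of high replicate 6 was the highest of all for Fasn, Elovl6 (10.88), Acacb (6.95) and Acly (12.61), and 3 livers with Fasn under 8.4 (high replicates 8 and 1 and low replicate 2) had the 3 lowest Acacb levels, between 4.00 and 4.35.

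Elovl6 rose by 0.88 ± 0.09 (SE) log2 units per unit of Fasn (n = 15 mice, limma adjusted p = 0.0104), with a group-centred Pearson r of 0.94 (permutation p = 2.00e-05) and a Spearman rho of 0.90 (permutation p = 4.00e-05). Without the 2 mice farthest from the median of Fasn, r was 0.91, and within the high and the low triglyceride mice it was 0.95 and 0.90. Acacb had a slope of 1.03 ± 0.14 (limma adjusted p = 0.0340), r = 0.91 (permutation p = 1e-05, the smallest that 100000 permutations can give) and rho = 0.88 (permutation p = 8.00e-05), and r = 0.95 without the 2 farthest mice. Acacb held r = 0.90 among high and 0.97 among low triglyceride mice, so the relation was present in both groups. For Acly the slope was 0.57 ± 0.08 (limma adjusted p = 0.0409), with r = 0.90 (permutation p = 2.00e-05), rho = 0.86 (permutation p = 0.00016), and 0.86 for r without the 2 farthest mice. Without high replicate 6 the call of Elovl6 was lost (slope 0.76, limma adjusted p = 0.210), while it held without each of the other 14 livers. The call of Acacb held only without high replicate 2, 6 or 7 and that of Acly only without high replicate 1, and the loss of any other single liver ended them. On ranks in place of log2 values none of the 3 passed (limma adjusted p = 0.0652 for Elovl6, 0.0652 for Acacb and 0.0851 for Acly).

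Acaca (r = 0.87, rho = 0.76, permutation p = 0.00033 and 0.00237, r = 0.70 without the 2 farthest mice) and Me1 (r = 0.85, rho = 0.85, permutation p = 0.00031 and 0.0002, r = 0.81 without them) came next, with limma adjusted p of 0.119 and 0.184. At an unadjusted p under 0.05, 19 of the 37 genes had a positive slope in liver and 0 a negative one, where 4.55% of all probe sets had such a positive slope. Of the 29 genes with a mean of 4 or more, 19 had r above 0.5, against 8.92% of all such probe sets, and their median r was 0.64, against 0.10 over all. The mice are the same for every gene, so these counts describe 1 shared pattern rather than separate results.

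By role, r with Fasn in liver was as follows, with no test between roles, each of which holds 2 to 4 genes with a mean of 4 or more. The median r was 0.89 for the 2 carboxylases, 0.80 for the 4 genes of citrate, acetyl-CoA and NADPH supply, 0.68 for Lpin1 and Lpin2, 0.65 for elongases, 0.63 for desaturases, 0.56 for the ligases, 0.42 for the transcription regulators and 0.38 for the acylation of the glycerol backbone. It was -0.07 for the last acylations, with Dgat2 at r = -0.05 (rho = -0.06, permutation p = 0.875 and 0.840, r = 0.14 without the 2 farthest mice) and Dgat1 at r = -0.10 (rho = -0.12, permutation p = 0.773 and 0.699, r = 0.02 without them). Elovl2, Agpat3 and Scd2 also followed little, with r of 0.11, 0.11 and 0.17. Gpam reached r = 0.76 (rho = 0.63, permutation p = 0.00331 and 0.0193), which fell to 0.48 without the 2 farthest mice, and Thrsp r = 0.72 (rho = 0.75, permutation p = 0.00339 and 0.00205, r = 0.64 without them).

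**Figure D2:**
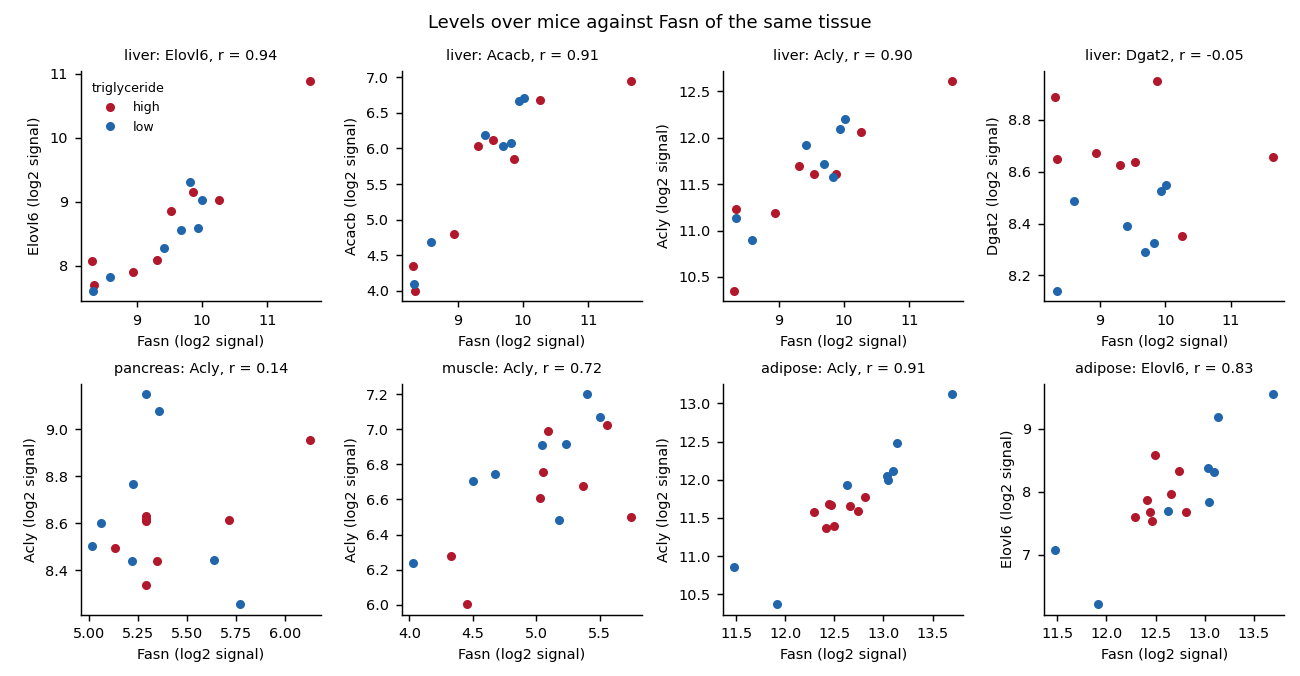
Level of a gene (log2 signal, vertical) against Fasn of the same tissue (log2 signal, horizontal), 1 point per mouse, high triglyceride mice in red and low triglyceride mice in blue, with the group-centred Pearson r above each panel. Elovl6, Acacb and Acly climb with Fasn in liver (r 0.94, 0.91 and 0.90), Dgat2 does not (r -0.05), and in adipose tissue the line of Acly is drawn out by the low triglyceride mice.

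For Srebf1 mRNA, r with Fasn was 0.48 (rho = 0.39, permutation p = 0.0677 and 0.146, r = 0.60 without the 2 farthest mice). With Srebf1 as guide in place of Fasn, 1 probe set passed in adipose tissue (0.00222%), which was none of the 37 genes. In liver 2 probe sets passed (0.00444%) and 0 of the 37 genes, 7 of which had a positive slope at an unadjusted p under 0.05. Srebf1 and Thrsp had r = 0.81. With Mlxipl as guide, 1086 probe sets passed (2.41%) and 1 of the 37 genes, Fads2, and in muscle 37 probe sets (0.0822%) and 0 of the genes. Within families in liver, r was 0.85 for Lpin1 with Lpin2 and 0.73 for Acaca with Acacb, but 0.03 for Dgat1 with Dgat2 and -0.32 for Scd1 with Scd2. Over all 435 pairs of the 30 genes with a mean of 4 or more, the median r was 0.40 and 39.5% of pairs were above 0.5, where pairs of all such probe sets had a median of 0.03 and 6.78% above 0.5.

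Signs of handling and of other cells were set beside the liver pattern. The 3′ minus 5′ signal of the Gapdh control, a measure of RNA quality, had r = -0.01 with Fasn. The summed level of 6 muscle fibre markers ranged from 5.14 to 11.91 in high and 5.09 to 11.82 in low triglyceride livers (3 of 6 markers with a mean of 4 or more) and had r = 0.10 with Fasn. For the other cell types r ran from -0.56 for acinar markers to 0.23 for brown adipocyte markers. Of the 5 acinar markers measured 0 had a mean of 4 or more and 3 were near the floor. The part of these cells was not tested. With the level of Ckm, a muscle fibre marker, as a covariate, Elovl6 still passed (limma adjusted p = 0.00717) and Acacb (0.0634) and Acly (0.0707) no longer did.

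The same fit was made in the other tissues, where Fasn itself varied less, with an SD of 0.52 in adipose tissue, 0.49 in muscle and 0.29 in pancreas, against 0.89 in liver, and r was not tested between tissues. In adipose tissue 2 probe sets of 45036 passed (0.00444%), both of them Acly. Acly had a slope of 1.08 ± 0.13 (n = 16 mice, limma adjusted p = 0.0378), r = 0.91 (permutation p = 0.00205), rho = 0.88 (permutation p = 0.00021) and r = 0.89 without the 2 farthest mice. Here the groups differed in range: Acly ran from 11.37 over 11.62 to 11.77 in high triglyceride mice and from 10.37 over 12.02 to 13.12 in low triglyceride mice, and r was 0.45 within the high and 0.94 within the low group. The call held without high replicate 8, low replicate 2 or low replicate 7 and was lost without any other single array, on ranks (limma adjusted p = 0.972) and with Adipoq as a covariate (0.0951). Summed cell markers of adipose tissue had r with Fasn from -0.31 for red blood cells to 0.51 for acinar cells. Of the 5 acinar markers measured 0 had a mean of 4 or more. B and T cell markers (5 of 5) had r = 0.30 and adipocyte markers (4 of 4 measured) r = -0.10. The part of these cells was not tested. Elovl6 was next, with r = 0.83 (rho = 0.80, permutation p = 0.00378 and 0.00082, r = 0.82 without the 2 farthest mice, limma adjusted p = 0.222), again with r = 0.29 within high and 0.87 within low triglyceride mice. Acaca (r = 0.61, rho = 0.66, permutation p = 0.0338 and 0.00822, r = 0.53 without the farthest mice) and Slc25a1 (r = 0.51, rho = 0.23, permutation p = 0.0788 and 0.426, r = 0.37 without them) had limma adjusted p of 0.725 and 0.972. In all, 4 of the 37 genes had a positive slope at an unadjusted p under 0.05, where 1.56% of all probe sets had one. Gpam (r = -0.24) and Dgat1 (r = -0.27) were lowest, and the median r of 32 genes with a mean of 4 or more was 0.23, against -0.003 over all such probe sets.

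In muscle 0 probe sets passed and 3 of the 37 genes had a positive slope at an unadjusted p under 0.05 (1.93% of all probe sets). They were Scd2 (r = 0.72, rho = 0.66, permutation p = 0.00322 and 0.00867), Acly (r = 0.72, rho = 0.62, permutation p = 0.00315 and 0.0163) and Scd1 (r = 0.65, rho = 0.61, permutation p = 0.00488 and 0.0156), each with a limma adjusted p of 1, and r was 0.47, 0.56 and 0.54 without the 2 farthest mice. Fat cells lie between muscle fibres, and the summed adipocyte markers of muscle (2 of 4 measured with a mean of 4 or more, 0 near the floor) had r = 0.48 with Fasn. The summed muscle fibre markers (6 of 6) had r = 0.55 with Fasn, and their part was not tested. With Adipoq as guide, 784 probe sets passed in muscle (1.74%) and 0 of the 38 genes. With Adipoq as a covariate, the slope on Fasn was 1.18 for Scd1, against 1.73 without it, and 0.45 for Scd2, against 0.66. In pancreas 0 probe sets passed, 3 genes had a positive slope at an unadjusted p under 0.05 (4.05% of all probe sets), and the median r over 18 genes was 0.17, as over all probe sets. Several pancreas arrays, among them high replicates 1, 3 and 5, shared the same Fasn value of 5.29. The guide thus hardly varied over part of the mice, which limits what r can show in pancreas. Elovl1 was highest there (r = 0.55, rho = 0.79, permutation p = 0.0170 and 0.00056, r = 0.57 without the 2 farthest mice, limma adjusted p = 0.873) and Dgat2 lowest (r = -0.52, rho = -0.53, permutation p = 0.0486 and 0.0350, r = -0.15 without them, limma adjusted p = 0.967).

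Counted by r above 0.5 among genes with a mean of 4 or more, pancreas had 1 of 18 genes (7.78% of all such probe sets), muscle 3 of 25 (5.08%) and adipose tissue 4 of 32 (1.54%).

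**Figure D3:**
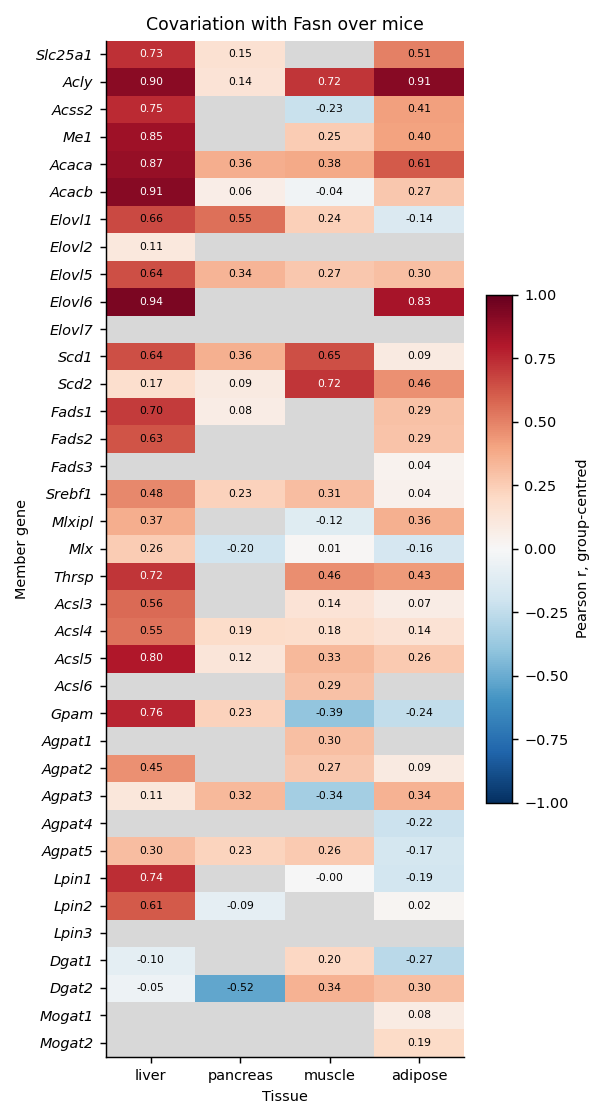
Group-centred Pearson r with Fasn over mice (colour and printed value) for each of the other 37 genes in liver (n = 15), pancreas, muscle and adipose tissue (n = 16 each), grey where the mean log2 level was under 4. The liver column is the most uniform, with r above 0.5 for 19 of 29 genes; pancreas has 1 of 18, muscle 3 of 25 and adipose tissue 4 of 32.

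Fads1 and Fads2 also moved together. They had r = 0.90 in adipose tissue (rho = 0.96, permutation p = 1e-05 for both, the smallest possible; r = 0.87 without the 2 farthest mice) and r = 0.75 in liver (rho = 0.80, permutation p = 0.00169 and 0.00087; r = 0.72 without them). In adipose tissue the relation held within high (r = 0.94) and within low triglyceride mice (r = 0.97). Fads3 did not follow them there, with r = 0.09 with Fads1 and 0.21 with Fads2. In total, 28 relations with Fasn and 9 further pairs were computed in this way. The share of gene pairs with r above 0.5 was 15.0% in adipose tissue, 12.3% in pancreas and 7.08% in muscle, against 9.89%, 10.8% and 5.78% for pairs of all probe sets.

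The third comparison, high against low triglyceride mice, was the one for which the mice were chosen. In each of the 4 tissues 0 of the 38 genes passed an adjusted p of 0.05 in limma, and 0 of 45037 probe sets did (percent called 0), with the lowest adjusted p of a listed gene between 0.772 (adipose tissue) and 0.846 (muscle). No gene had groups without overlap, which 0.0377%, 0.00444%, 0.0311% and 0.0222% of all probe sets had in these tissues. Since none passed, the 5 genes with the lowest p in each tissue are described by their values. On simulated data with 200 changed probe sets, a shift of 1 log2 unit was found for 56.0% of them in adipose tissue, 73.0% in liver, 78.0% in pancreas and 90% in muscle, and a shift of 0.5 for 15.0%, 36.0%, 24.0% and 41.0% in the same order, so smaller shifts than 1 could often be missed. The 95% interval of the difference lay within 1 log2 unit of 0 for 22 of 30 genes with a mean of 4 or more in liver, 17 of 19 in pancreas, 25 of 26 in muscle and 23 of 33 in adipose tissue.

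**Figure D4:**
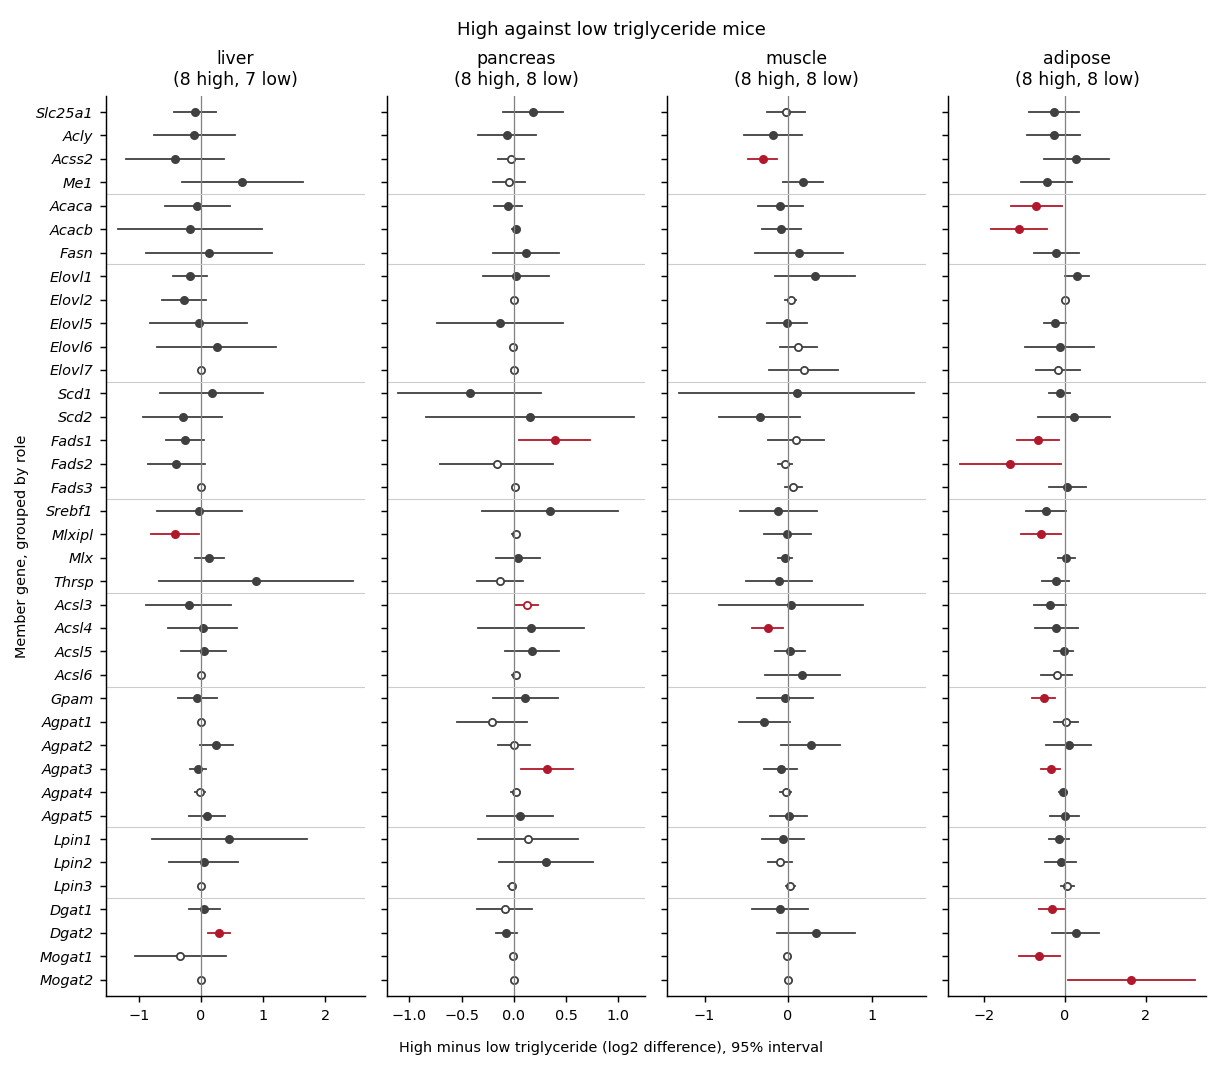
High minus low triglyceride difference (log2) of each gene with its 95% interval in liver (8 high, 7 low), pancreas, muscle and adipose tissue (8 high, 8 low each); red marks an unadjusted p under 0.05 and open points a mean level under 4, and the horizontal scales differ. Adipose tissue has 10 red points, 9 of them on the lower side; liver has 2, pancreas 3 and muscle 2.

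Adipose tissue had the most genes at an unadjusted p under 0.05, 10 of 38, where 4.62% of all probe sets were so called. All 10 had a mean of 4 or more, and of all probe sets with such a mean 9.27% were so called. Of the 10, 9 were lower in high triglyceride mice (3.57% of all probe sets) and 1 higher (1.05%). Among the 33 genes with a mean of 4 or more, 25 were lower and 8 higher, with a median difference of -0.22, against -0.04 over all such probe sets, 59.6% of which were lower. These counts are descriptions, since none of the genes passed over all probe sets.

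Gpam, which starts glycerolipid synthesis, ran from 10.47 over a median of 10.87 to 11.21 in adipose tissue of high triglyceride mice and from 10.87 over 11.33 to 11.87 in that of low triglyceride mice. The groups overlapped between 10.87 and 11.21, yet all 8 high triglyceride mice lay below the median of the low group. The difference was -0.53 (95% interval -0.81 to -0.25, unadjusted p = 0.00129, limma adjusted p = 0.772). Acacb ran from 7.23 over 7.38 to 8.04 in high and from 7.13 over 9.05 to 9.74 in low triglyceride mice. The high group was narrow and the low group wide, with 1 low triglyceride mouse at 7.13, below every high one, and another at 7.97 inside the high range. Acacb differed by -1.14 (interval -1.84 to -0.44, unadjusted p = 0.00361, limma adjusted p = 0.864), or 0.454-fold, but by only -0.46 when the probe sets of the gene were averaged.

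Agpat3, an acyltransferase of the second glycerolipid step, ran from 8.55 over 8.77 to 8.95 in high and from 8.77 over 9.03 to 9.47 in low triglyceride mice, a difference of -0.35 (limma adjusted p = 0.864). Fads1 ran from 8.05 over 8.26 to 8.67 in high and from 7.94 over 9.03 to 9.89 in low triglyceride mice, a difference of -0.66 (limma adjusted p = 0.900), which was -0.43 with its probe sets averaged. Mogat1, which makes diacylglycerol from monoacylglycerol, ran from 6.24 over 6.56 to 7.41 in high and from 6.36 over 7.39 to 8.15 in low triglyceride mice, a difference of -0.63 (limma adjusted p = 0.900). For Agpat3 and Fads1 all 8 high triglyceride mice lay below the median of the low group, and for Mogat1 7 of 8 did. The other 5 of the 10 genes, named after their values were seen, were Mlxipl (-0.59), Acaca (-0.70), Fads2 (-1.36), Dgat1 (-0.33) and, on the higher side, Mogat2 (1.65). The authors list Mogat1 and Acaca of adipose tissue as negatively correlated with body or fat pad weight in these mice. The part of fat pad weight in the differences was not tested. Fasn itself differed by -0.21 (interval -0.77 to 0.34), with a range of 12.29 to 12.81 in high and 11.48 to 13.70 in low triglyceride mice.

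Markers of other cell types varied widely between adipose samples, with ranges that overlapped between the groups. The summed hepatocyte markers, of which 2 of 6 had a mean of 4 or more and 0 were near the floor, ranged from 5.85 to 12.10 in high and from 5.75 to 7.30 in low triglyceride mice (difference of means 2.37). Those of muscle fibres (6 of 6) ranged from 8.25 to 15.30 in high and 9.65 to 16.43 in low (difference -1.03), and those of brown adipocytes (4 of 5) from 8.45 to 13.68 in high and 10.37 to 13.36 in low (difference -0.77). The brown adipocyte sum is not particular to that cell type. In muscle its members Cox8b and Cox7a1 averaged 14.04 and 12.97, and Ucp1 and Cidea 2.32 and 2.41. Adipocyte markers (4 of 4 measured) were alike, at 15.84 to 16.18 in high and 15.82 to 16.20 in low triglyceride mice. With Alb as a covariate, 6 genes had an unadjusted p under 0.05, with Ckm 12, with Ucp1 9 and with Adipoq 10. The 3′ minus 5′ signal averaged -0.064 in high and -0.022 in low triglyceride mice for Gapdh and 1.23 in high and 1.34 in low for beta actin, and its part in the differences was not tested. Without low replicate 3 the count was 6, and leaving out any other array gave 7 to 11.

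**Figure D5:**
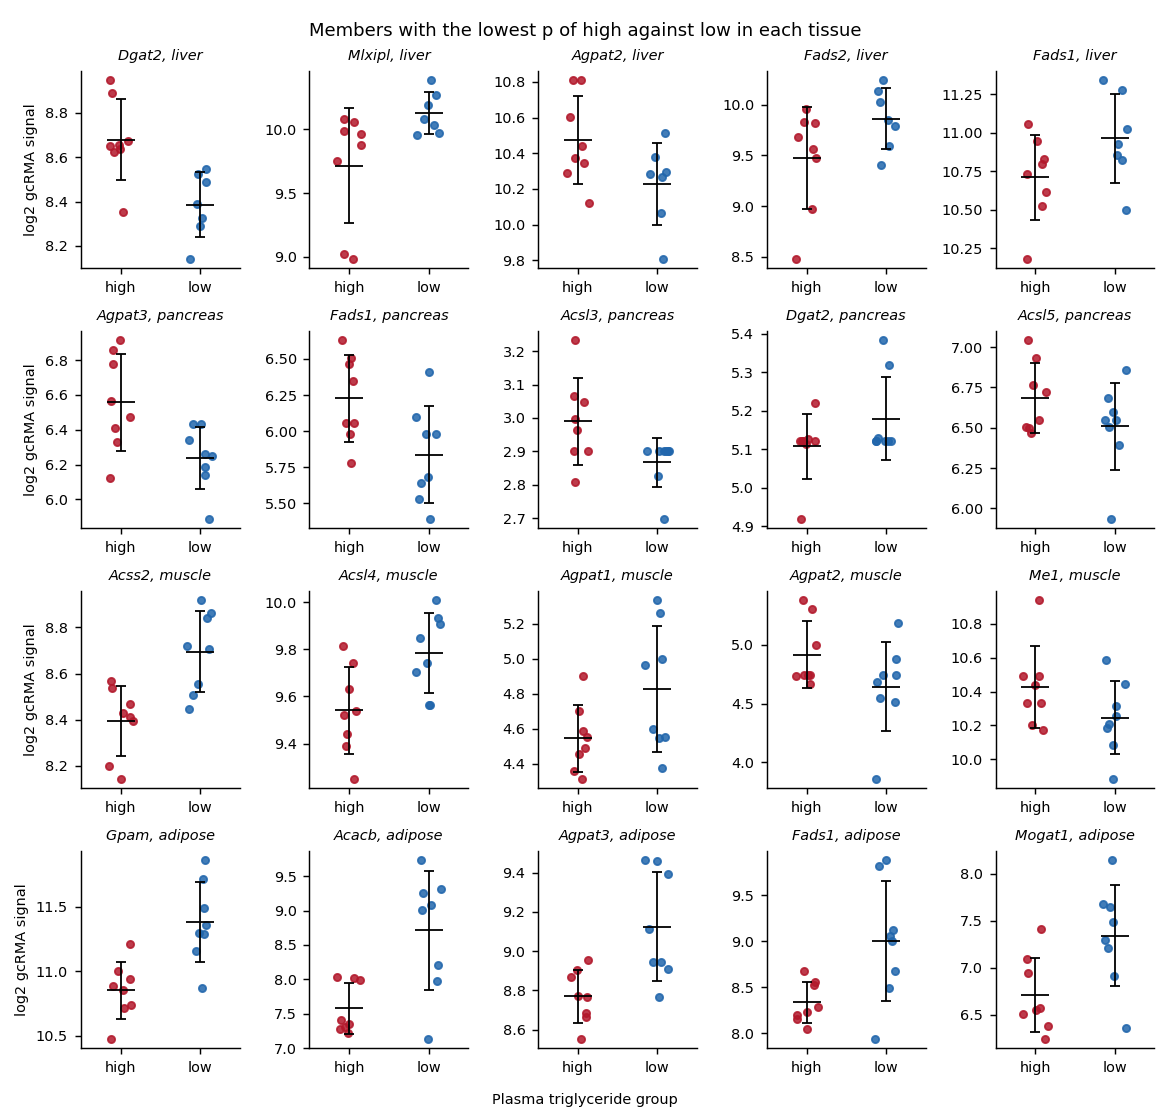
Levels (log2 gcRMA signal) of the 5 genes with the lowest p of high against low triglyceride in liver, pancreas, muscle and adipose tissue (rows from the top), 1 point per mouse, high triglyceride in red on the left and low in blue on the right, with mean and SD as bars. The 2 groups overlap in every panel, and none passed an adjusted p of 0.05.

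In liver 2 of the 38 genes had an unadjusted p under 0.05, where 5.36% of all probe sets did, 1 higher (2.41% of all probe sets) and 1 lower (2.95%). Both had a mean of 4 or more, and of all probe sets with such a mean 13.6% had such a p. Dgat2, the acyltransferase of the last step of triglyceride synthesis, ran from 8.35 over 8.65 to 8.95 in high and from 8.14 over 8.39 to 8.55 in low triglyceride mice. Of the 8 high triglyceride livers, 7 lay above the whole low range and 1 within it, and the difference was 0.29 (interval 0.11 to 0.47, unadjusted p = 0.00422, limma adjusted p = 0.802). Mlxipl ran from 8.98 over 9.92 to 10.08 in high and from 9.95 over 10.08 to 10.39 in low triglyceride mice, a difference of -0.41 (interval -0.80 to -0.03, unadjusted p = 0.0373, limma adjusted p = 0.802). For this regulator 2 high triglyceride livers, near 9.0, lay far below the rest. Agpat2 (0.24), Fads2 (-0.39) and Fads1 (-0.25) came next, with unadjusted p of 0.066, 0.0901 and 0.0978. For the genes that passed along Fasn in liver the intervals were wide and included 0: Elovl6 differed by 0.25 (interval -0.70 to 1.21), Acacb by -0.18 (-1.33 to 0.97) and Acly by -0.11 (-0.75 to 0.54). Fasn itself differed by 0.13 (-0.89 to 1.14). Over 30 genes with a mean of 4 or more the median difference was -0.03, against -0.02 over all such probe sets. The 3′ minus 5′ Gapdh signal averaged 0.558 in high (0.053 to 0.972) and 0.957 in low triglyceride livers (0.564 to 1.13), and its part in the differences was not tested.

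Pancreas had 3 genes at an unadjusted p under 0.05, against 2.23% of all probe sets, all higher in high triglyceride mice (1.46% of all probe sets) and 0 lower (0.766%). Of the 3, 2 had a mean of 4 or more, and of all probe sets with such a mean 6.42% had such a p. Agpat3 ran from 6.12 over 6.52 to 6.92 in high and from 5.89 over 6.25 to 6.43 in low triglyceride mice (difference 0.32, interval 0.07 to 0.56, unadjusted p = 0.0152, limma adjusted p = 0.795). Fads1 ran from 5.78 over 6.20 to 6.63 in high and from 5.39 over 5.83 to 6.41 in low (difference 0.39, interval 0.05 to 0.73, unadjusted p = 0.0266, limma adjusted p = 0.795). For each of the 2 genes, 7 of 8 high triglyceride mice lay above the median of the low group. Acsl3 differed by 0.12, at levels of 2.81 to 3.23 in high and 2.70 to 2.90 in low that lie little above the floor, and Dgat2 (-0.07) and Acsl5 (0.18) had unadjusted p of 0.153 and 0.166. The median difference over 19 genes was 0.11, against 0.04 over all such probe sets. Summed islet markers (4 of 5 measured with a mean of 4 or more) differed by 0.49 and macrophage markers (2 of 6) by -0.42, with overlapping ranges. Acinar markers (5 of 5) ran from 18.54 to 18.61 in high and 18.45 to 18.56 in low. The 3′ minus 5′ signal averaged 0.704 in high and 0.665 in low for Gapdh, and 1.71 and 1.93 for beta actin. The part of these markers and signals was not tested.

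Muscle had 2 genes at an unadjusted p under 0.05, against 4.1% of all probe sets, both lower in high triglyceride mice (1.78% of all probe sets) and 0 higher (2.32%). Both had a mean of 4 or more, and of all probe sets with such a mean 9.52% had such a p. Acss2 ran from 8.14 over 8.42 to 8.57 in high and from 8.45 over 8.71 to 8.92 in low triglyceride mice (difference -0.30, interval -0.47 to -0.13, unadjusted p = 0.00217, limma adjusted p = 0.846), with all 8 high triglyceride mice below the low median. Acsl4 ran from 9.25 over 9.53 to 9.81 in high and from 9.56 over 9.79 to 10.01 in low (difference -0.24, unadjusted p = 0.0143, limma adjusted p = 0.846), and its sign turned, to 0.05, when its probe sets were averaged. Agpat1 (-0.28), Agpat2 (0.27) and Me1 (0.18) had unadjusted p of 0.065, 0.126 and 0.131. Markers of hepatocytes ranged from 5.09 to 11.36 in high and 5.17 to 8.01 in low triglyceride muscle (2 of 6 with a mean of 4 or more, 0 near the floor), and those of adipocytes from 6.39 to 11.35 in high and 7.64 to 10.19 in low. With Adipoq as a covariate Agpat2 differed by 0.15 and Acss2 by -0.30. Over all processing alternatives the difference of Acss2 ran from -0.30 to -0.057. The 3′ minus 5′ Gapdh signal averaged -0.046 in high (-0.097 to 0.029) and 0.043 in low triglyceride muscle (-0.016 to 0.132). The part of the hepatocyte markers and of this signal was not tested.

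Another 33 genes of the pathway, among them further elongases, enzymes of NADPH supply and regulators of SREBP, gave 0 calls in each tissue. At an unadjusted p under 0.05, 1 was higher and 2 lower in high triglyceride liver, 0 either way in pancreas, 1 higher in muscle and 3 lower in adipose tissue. The 3 in adipose tissue were Gpat4 (-0.39, limma adjusted p = 0.900), an acyltransferase of the first glycerolipid step, Mbtps2 (-0.14), a protease that releases SREBP, and Mid1ip1 (-0.42), a relative of Thrsp that binds acetyl-CoA carboxylase. Along Fasn, 10 of the 33 had a positive slope at an unadjusted p under 0.05 in liver and 1 passed, Pgd (r = 0.93, slope 0.42 ± 0.05, limma adjusted p = 0.0104), followed by Dbi, which carries acyl-CoA (r = 0.82), and Insig1, which retains SREBP in the endoplasmic reticulum (r = 0.73).

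The difference between tissues in the high minus low effect was tested for all 6 pairs of tissues. Agpat3 alone passed, in pancreas minus adipose tissue, at 0.67 (limma adjusted p = 0.0189), with 67 of 45037 probe sets called (0.149%). Its high minus low difference was 0.32 in pancreas and -0.35 in adipose tissue, so the groups were in opposite order. Over the processing alternatives the Agpat3 difference ran from 0.029 to 0.32 in pancreas and from -0.38 to -0.25 in adipose tissue. The order in pancreas was thus weak under some choices. Fads1 had the same signs, with a difference of 1.05 (limma adjusted p = 0.0537). This fit took 1 spread for all tissues, and with the spread of each tissue estimated apart Agpat3 no longer passed (limma adjusted p = 0.609). On simulated data with probe sets shifted in adipose tissue alone, calls were counted in liver minus pancreas, a pair with no simulated difference. There the fit with 1 spread made 40 calls and the fit with a spread per tissue 0. False calls were not counted in the pair of Agpat3, pancreas minus adipose tissue. In the data, the call of Agpat3 depends on the assumption of 1 spread. In the other 5 pairs of tissues 0 of the 38 genes passed, where 0.0355% of probe sets did for liver minus pancreas, 0.0289% for liver minus muscle, 0.189% for liver minus adipose tissue, 0.00666% for pancreas minus muscle and 0.111% for muscle minus adipose tissue. At an unadjusted p under 0.05, 10 genes differed in pancreas minus adipose tissue (10.3% of all probe sets), 9 in liver minus adipose tissue (10.1%), 8 in muscle minus adipose tissue (9.05%), 3 in liver minus pancreas (5.48%), 2 in liver minus muscle (4.85%) and 1 in pancreas minus muscle (4.28%).

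Finally, the 4 tissues of a mouse were asked whether a gene is high in all of them at once. For the effect of mouse shared by the tissues 325 probe sets passed (0.722%) and 0 of the 38 genes. At an unadjusted p under 0.05, 10 genes had such an effect, where 7.52% of all probe sets did. Fasn led (F = 2.82, limma adjusted p = 0.222), then Agpat2 (F = 2.60, 0.300) and Acly (F = 2.59, 0.301). Between tissues, Fasn had r of 0.48 for liver with pancreas, 0.45 for liver with adipose tissue, 0.41 for pancreas with adipose tissue, 0.40 for liver with muscle, 0.30 for muscle with adipose tissue and 0.09 for pancreas with muscle. With the muscle arrays of high replicates 1 and 4 left out or exchanged, 0 genes passed and 9 or 12 had an unadjusted p under 0.05.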

How the data were processed

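RNA of liver, pancreas, muscle and adipose tissue of 16 mice was hybridised to Affymetrix arrays. The deposited values are log2 values, which the authors made with gcRMA (named as GCRMA in the submitters' processing notes, with no version) and scaled within each tissue, so levels were tested within a tissue only; fits over all 4 tissues tested the high minus low difference and the effect of mouse, each relative to its own tissue. The deposited traits and genotypes were not used, as that table has no mouse number here. Control probe sets (64 of 45101) were left out, and of 45037 tested, 34945 had 1 gene symbol, 932 several and 9160 none here. Groups were compared with limma 3.58.1 in R 4.3.3 with Benjamini-Hochberg adjustment over all probe sets; correlations used 100000 permutations within groups. No p-value was adjusted over the gene list alone. Precision is limited by the number of mice, which are separate animals. Members, lists and motifs were chosen with earlier results of these data known. Named for their values are the 5 genes with the lowest p per tissue, and the 5 highest and 2 lowest r with Fasn. Permutation p-values were not adjusted for this choice. Scripts were tested on simulated data (python 3.11.15). Alternatives were quantile normalization, a mean of 4 or more, other choices of probe set, array weights, ranks, covariates, each array left out in turn, and a block for the replicate number.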

Additional observations from a re-analysis of the deposited data

Results flagged for a closer look

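Of 40 groups of mice with named genes, 3 had a single array far from the others, where chance gives about 1 in 20. In pancreas, Acsl3 was at 2.70 in low replicate 8, with the nearest of the others at 2.83, and Dgat2 at 4.92 in high replicate 6, with the nearest at 5.11. In muscle, Me1 was at 10.94 in high replicate 5, with the nearest at 10.49. The high minus low difference of Agpat3 differed between pancreas and adipose tissue by 0.67 in the fit with 1 spread for all tissues (limma adjusted p = 0.0189), and not with a spread per tissue (limma adjusted p = 0.609).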

How the results depend on the processing

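With liver low replicate 7 kept, liver had 0 genes at an unadjusted p under 0.05 between groups and 19 called along Fasn, and signs turned for the high minus low difference of Agpat2 (-0.051), Fads2 (0.37) and Fads1 (0.36) and the slope on Fasn of Dgat2 (0.26) and Dgat1 (0.58). Between groups, genes at an unadjusted p under 0.05 numbered 1 in liver with the highest probe set of the tissue, 1 in pancreas with array weights, 0 in muscle with probe sets averaged (Acsl4 0.046) and 4 with Adipoq as a covariate, and 6 in adipose tissue with Alb as a covariate, a choice made after seeing the data, as were Ckm, Ucp1 and the spread per tissue. Along Fasn, the liver count was 5 over probe sets with a mean of 4 or more, 0 on ranks, 0 with the replicate block and 1 with Ckm, and 10 genes had a positive slope at an unadjusted p under 0.05 with the replicate block. Other such counts were 1 in pancreas over probe sets with a mean of 4 or more and 6 in muscle on ranks. Adipose tissue had 0 calls along Fasn with Adipoq, on ranks and with the replicate block. The slope of Dgat2 in liver was 0.0037 without the group term, 0.067 with the highest probe set of the tissue, 0.0084 with the replicate block and 0.0035 with Ckm, and that of Mlx in pancreas 0.20 on ranks and 0.011 with the replicate block. Mouse effects at an unadjusted p under 0.05 numbered 6 after quantile normalization, 5 without liver, 4 without pancreas and 2 without adipose tissue. The difference between tissues gave 0 genes with liver low replicate 7 kept, 0 after quantile normalization, 0 with a spread per tissue and 2 over probe sets with a mean of 4 or more. The cause of these changes was not tested.

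Leaving out single arrays gave 1 to 4 genes at an unadjusted p under 0.05 in liver (1 without high replicate 3 or 8 or low replicate 3, 4 or 5, and 4 without low replicate 6), 1 to 4 in pancreas (1 without high replicate 6 and 4 without high replicate 2), 2 to 3 in muscle and 6 to 11 in adipose tissue, with 0 calls between groups in any tissue. Along Fasn it gave 1 to 2 calls in liver (2 without high replicate 1, 2, 4 or 7), 0 to 1 in adipose tissue, and positive slopes in 16 to 20, 2 to 3, 3 to 5 and 3 to 5 genes of liver, pancreas, muscle and adipose tissue. High and low replicates of one number share only that number, since the correlations of their deviations ran from -0.29 to 0.36 (over 0.1 in 2 of 7 pairs in liver, 1 of 8 in pancreas, 1 of 8 in muscle and 4 of 8 in adipose tissue), and the replicate block gave 14 genes at an unadjusted p under 0.05 in adipose tissue. Slopes of Dgat1 (-0.064 to 0.054) and Dgat2 (-0.041 to 0.021) in liver and of Gpam in adipose tissue (-0.296 to 0.108) turned sign. Of 1558 alternative values, 1426 kept direction and side of the threshold. Most of them belong to results that had not passed in the main fit and could hardly cross it, so this share does not speak for the calls. With single arrays left out, the liver calls held in 14 of 15 cases for Elovl6, 3 of 15 for Acacb and 1 of 15 for Acly. The adipose call of Acly held in 3 of 16.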
